A study of Bos taurus with 8 samples.

Results

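The interleukin-1 (IL-1) family genes examined here were IL1A, IL1B, IL1RN, IL1R1, IL1R2, IL1RAP, IL18 and CASP1. They were taken by name for their function, with earlier results of these data known. Every array probe whose accession belongs to one of them was read, and the brightest kept probe stood for its gene in the gene-level tests. Of the 8 genes, 7 had at least 1 matched probe, and all 7 passed the filter on dim probes, among 15137 genes tested in all. No probe was matched to CASP1, the protease that cuts the IL-1beta and IL-18 precursors, and its level was not analysed here. The genes were measured in peripheral blood mononuclear cells (PBMCs), the blood fraction of lymphocytes and monocytes, of 3 groups of cows: lame crossbred (4 arrays), normal crossbred (2 arrays) and normal Tharparkar, an Indian zebu breed (2 arrays). The labels give no treatment, age, cause of lameness or number of cows, and do not say which breeds were crossed.

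Total RNA was labelled with Cy3 and read on a 1-colour Agilent bovine array. Per the labels' protocols the RNA samples were run in technical duplicate. The titles of the lame arrays (R1_1, R1_2, R2_1, R2_2) carry 2 numbers, and the first was taken as the RNA sample, so the 8 arrays presumably hold 2 lame RNA samples and 1 of each normal group. Pairs of arrays presumed to share an RNA correlated at 0.981 to 0.997 over all genes, against 0.951 to 0.970 between the 2 lame RNA samples. Lame and normal crossbred arrays correlated at 0.942 to 0.966, a range that overlaps the latter. The p-values below treat arrays as observations and therefore measure in large part the technical spread; as tests of cows they are too small. With the duplicates averaged, only 1 residual degree of freedom was left, every gene took the same standard error, and a call became a minimum fold. The array lame R2_2 stood apart, with 70.9% of probes well above background against 52.8% to 61.5% on the others. Its median raw signal was 192.5 units against 74 to 102, and that of its negative controls 107 against 53 to 65, which touches dim probes such as those of IL1A, IL1R2 and IL1RAP in lame arrays.

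IL-1alpha and IL-1beta are the alarm cytokines of innate immunity. Both bind the receptor IL1R1, which recruits the shared subunit IL1RAP and signals through MYD88 and IRAK kinases to NF-kB. IL1RN encodes the receptor antagonist, which occupies IL1R1 without signalling, and IL1R2 is a decoy receptor that binds the ligands and does not signal. IL-18 is a related cytokine that drives interferon-gamma from T and NK cells, and, like IL-1beta, it is made as an inactive precursor. In blood, monocytes and neutrophils are the main makers of IL-1beta and of the antagonist. In the gene annotation used here (RefSeq, ARS-UCD2.0), IL1A, IL1B, IL1RN, IL1R1 and IL1R2 lie on chromosome 11, IL1RAP on chromosome 1, and IL18 and CASP1 on chromosome 15.

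Both agonists were far lower in the lame arrays than in either normal group, while their antagonist was lower by much less. Against normal crossbred, IL1A fell by 4.03 and IL1B by 3.49 on the log2 scale (16.3-fold and 11.2-fold), and IL1RN fell by 0.74 (1.67-fold). With normexp background correction, which adds an offset to dim signals, the log2 difference of IL1A was -2.19 and that of IL1B -3.07. IL18 was lower in lame than in normal crossbred arrays, while lame and Tharparkar arrays overlapped. None of the receptor genes IL1R1, IL1R2 and IL1RAP passed the test in any comparison. In all, 4 of the 7 measured genes passed an adjusted p of 0.05 (limma, Benjamini-Hochberg over all genes) in lame against normal crossbred, all of them lower. Of all genes, 9.61% passed in either direction and 6.32% were lower. Against normal Tharparkar, 3 of 7 passed, again all lower, beside 23.3% of all genes in either direction and 10.8% lower. Between the normal groups 1 of 7 passed, beside 18.6% of all genes. The lame arrays enter both of the lame comparisons, which are therefore not independent.

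**Figure D1:**
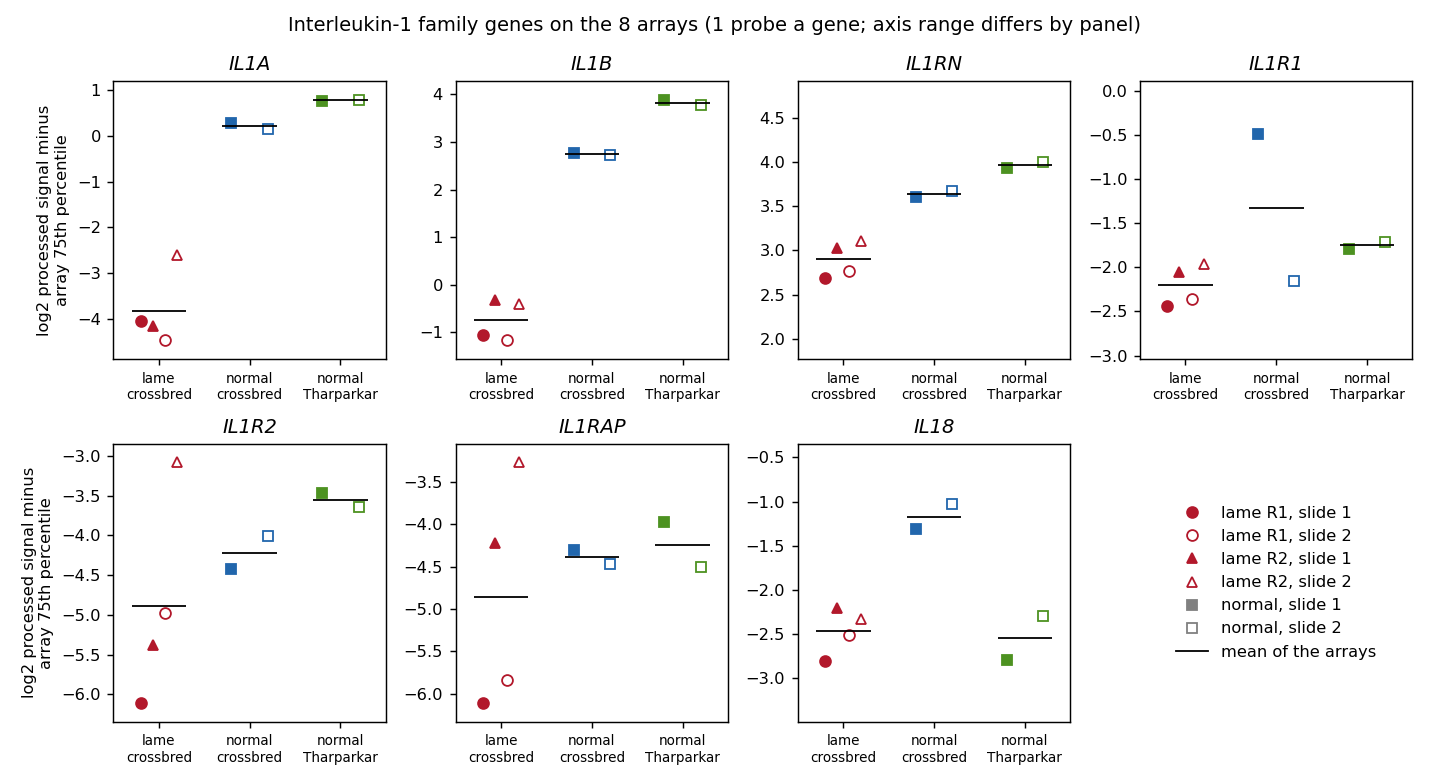
Level of each of the 7 measured genes on every array, on the log2 scale relative to the 75th percentile of its array, with 1 probe a gene; black lines are means of the arrays (4 lame, 2 and 2 normal). The 4 lame arrays lie below all normal arrays for IL1A, IL1B and IL1RN, the normal crossbred arrays lie above the rest for IL18, and for IL1R2 and IL1RAP the lame array R2_2 is the highest of all 8.

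IL1B encodes the secreted agonist. Levels are given on a log2 scale from which each array's own 75th percentile was subtracted, so 0 is the 75th percentile of that array. IL1B was at -1.06 and -1.17 on the 2 arrays of lame R1 and at -0.32 and -0.41 on those of lame R2. On the normal crossbred arrays it was at 2.77 and 2.72, and on the Tharparkar arrays at 3.89 and 3.77. The highest lame array was thus 3.05 below the lowest normal crossbred array and 4.09 below the lowest Tharparkar array, and no groups overlapped. Lame was lower than normal crossbred by a log2 difference of -3.49 (SE 0.27, 95% confidence interval -4.12 to -2.85, limma adjusted p = 0.000728). Against Tharparkar the difference was -4.57 (SE 0.27, adjusted p = 0.000126), or 23.8-fold. IL1B ranked 29th and 32nd by size of change among all genes in these comparisons. It is the only gene of the family that passed in both with the presumed RNA sample as a random block (limma adjusted p = 0.0193 and 0.00416). That fit uses 1 correlation (0.82) for all genes, and each normal group still has 1 presumed RNA sample. In it, 23 and 205 of the 15137 genes passed. Normal crossbred was below Tharparkar by -1.09 (SE 0.31), which just missed the threshold (limma adjusted p = 0.0504).

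The fall of IL1B was seen with each of its 4 probes. In lame against normal crossbred the other 3 probes gave -2.14, -3.01 and -2.66, and against Tharparkar -2.39, -4.10 and -3.77. All of these passed the probe-level test (limma over 24658 probes), with the largest adjusted p at 0.00642. Between the normal groups 3 of the 4 gave -1.09 to -1.11 and the remaining one gave -0.25. All 4 were well above background on all 8 arrays.

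IL1A encodes the agonist that is active without cleavage and is largely kept in the cell until it is damaged. Its level was -4.05, -4.47, -4.16 and -2.60 on lame R1_1, R1_2, R2_1 and R2_2, where the processed signal was 13.5 to 57.5 units. The normal crossbred arrays gave 0.28 and 0.14, and the Tharparkar arrays 0.77 and 0.79, with signals of 277 to 366.6 units. The lame arrays were all lower, with a gap of 2.74 to normal crossbred, and R2_2 was the highest of them. The log2 difference was -4.03 against normal crossbred (SE 0.48, limma adjusted p = 0.00361) and -4.60 against Tharparkar (SE 0.48, adjusted p = 0.00103). IL1A ranked 17th and 30th by size among all genes. Without lame R2_2 the differences were -4.44 and -5.01. With normexp they shrank to -2.19 and -2.64, smaller than those of IL1B in that setting (-3.07 and -3.88), and still passed.

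The call for IL1A held in fewer of the alternative settings than that for IL1B. It was lost against normal crossbred when either array of that group was left out (limma adjusted p = 0.06 and 0.0512), with the difference at -3.96 and -4.10. With the presumed RNA sample as a random block the SE rose to 1.22 (limma adjusted p = 0.387 and 0.148). A second IL1A probe was not well above background on any array and gives no measurement. The normal groups differed by -0.57 (95% confidence interval -1.86 to 0.72, limma adjusted p = 0.522).

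IL1RN, the receptor antagonist, was at 2.69 and 2.77 on the lame R1 arrays and at 3.03 and 3.11 on the lame R2 arrays. It was at 3.61 and 3.67 on the normal crossbred arrays and at 3.94 and 4.00 on the Tharparkar arrays. The 3 groups did not overlap, but the gap between lame and normal crossbred was only 0.49. Lame was lower by -0.74 (SE 0.16, limma adjusted p = 0.0347) and, against Tharparkar, by -1.07 (SE 0.16, adjusted p = 0.00478). The call against normal crossbred passed in 7 of the 20 other settings that give a test. It was lost, for example, with slide as a replicate block (limma adjusted p = 0.0631), with quantile normalization (0.207), with the random block (0.526) and without lame R1_1, lame R1_2 or any 1 of the normal arrays. The call against Tharparkar passed in 14 of 20, and was lost without either Tharparkar array.

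The 3 IL1RN probes did not give the same picture against Tharparkar. In lame against normal crossbred they gave -0.74, -0.95 and -0.60, of which the first 2 passed at the probe level (limma adjusted p = 0.044 and 0.0415). Against Tharparkar the 2 dimmer probes gave 0.00 and 0.67, where the brightest gave -1.07. Between the normal groups they gave 0.95 (limma adjusted p = 0.0378) and 1.27 (adjusted p = 0.29), against -0.33 for the brightest. The lower IL1RN in lame than in Tharparkar arrays was therefore a result of 1 probe of 3. Against normal crossbred the mean difference was negative for all 3, but the third did not pass (limma adjusted p = 0.624). On that probe the lame R2 arrays (-1.47 and -1.50) lay above both normal crossbred arrays (-1.92 and -1.84).

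**Figure D2:**
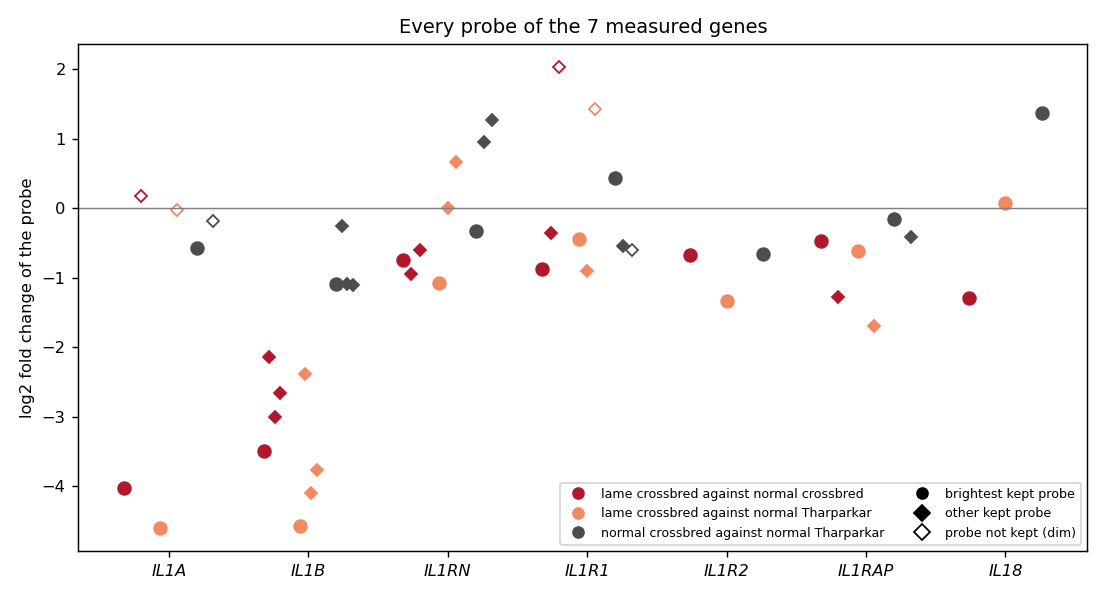
Log2 fold change of every matched probe of the 7 genes in the 3 comparisons (colours); circles are the probe used for the gene, filled diamonds other kept probes, open diamonds probes too dim to be kept. All 4 IL1B probes lie well below 0 in both lame comparisons, while the IL1RN probes lie on both sides of 0 against Tharparkar and between the normal groups.

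The balance of agonist and antagonist was read within each array as the IL1B level minus the IL1RN level. Each probe has its own brightness, so that only shifts of this difference between groups carry meaning. The difference was -3.93 to -3.35 on the lame arrays (means -3.84 for lame R1 and -3.44 for lame R2, so n = 2 RNA samples), -0.95 and -0.84 on normal crossbred and -0.23 and -0.05 on Tharparkar arrays. The lame mean was thus shifted by -2.75 from normal crossbred and by -3.50 from Tharparkar, and no lame array overlapped a normal one. With 1 presumed RNA sample in each normal group these shifts were not tested. The smallest fall of any IL1B probe against normal crossbred (-2.14) was also larger than the largest of any IL1RN probe (-0.95). For IL1A minus IL1RN the shifts were -3.29 and -3.53.

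IL18 had 1 probe, well above background on all arrays. It was at -2.81, -2.51, -2.21 and -2.33 on lame R1_1, R1_2, R2_1 and R2_2, at -1.31 and -1.03 on normal crossbred and at -2.79 and -2.30 on Tharparkar arrays. The normal crossbred arrays were the high ones, 0.90 above the highest lame array, while lame and Tharparkar arrays overlapped. Lame was below normal crossbred by -1.29 (SE 0.23, limma adjusted p = 0.0151), and normal crossbred was above Tharparkar by 1.37 (SE 0.26, limma adjusted p = 0.0124). Lame and Tharparkar differed by 0.08 (95% confidence interval -0.45 to 0.61), a difference whose sign turned with quantile normalization (-0.45). With normexp the 2 called differences shrank to -0.72 and 0.35 and did not pass (limma adjusted p = 0.0626 and 0.32). Both calls were also lost with quantile normalization, with no filter on dim probes, without either normal crossbred array, with duplicates averaged (limma adjusted p = 0.886 and 0.701) and with the random block (0.601 and 0.437). The second was also lost without Tharparkar R1.

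Some markers of T and NK cells moved with IL18. Of 6 T cell markers tested, 4 were lower in lame than in normal crossbred and 5 were higher in normal crossbred than in Tharparkar, with CD8A at -1.37 and 1.13. Of 5 NK cell markers, 2 moved in the same way, among them the cytotoxic granule gene NKG7 at -1.44 and 1.25, while GNLY (-1.32 and 1.39), KLRK1 (-1.22 and 1.42) and NCR1 (0.57 and 0.13) did not pass. Of all genes, 6.32% were lower in lame than in normal crossbred, and 1775 of 15137 were higher in normal crossbred than in Tharparkar. With duplicates averaged or the random block, 0 of these T and NK cell markers passed. The median level of the T cell markers was 1.40 to 1.83 on lame, 2.40 to 2.52 on normal crossbred and 1.16 to 1.25 on Tharparkar arrays. Their part in the IL18 result was not tested. In a bulk sample, fewer cells of a type and less RNA per cell cannot be told apart.

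The signalling receptor IL1R1 was at -2.44 and -2.36 on lame R1, at -2.05 and -1.96 on lame R2, and at -1.79 and -1.71 on the Tharparkar arrays. The 2 normal crossbred arrays disagreed, at -0.49 on R1 and -2.16 on R2, with signals of 178.2 and 56.4 units. A second kept probe showed no such gap between those arrays, at -3.33 and -3.13. The lame differences were -0.88 (95% confidence interval -1.86 to 0.09) and -0.45 (-1.42 to 0.53), with limma adjusted p = 0.237 and 0.471. Those of the second probe were -0.36 and -0.91. The remaining IL1R1 probe was well above background only on the 2 lame R2 arrays and was not kept.

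The decoy receptor IL1R2 was close to background, well above it on 1 of 4 lame, 1 of 2 normal crossbred and 2 of 2 Tharparkar arrays. Its levels were -6.11, -4.97, -5.38 and -3.08 on lame R1_1, R1_2, R2_1 and R2_2, -4.42 and -4.01 on normal crossbred, and -3.46 and -3.64 on Tharparkar arrays. Lame R2_2 was thus the highest of all, and the other 3 lame arrays were the lowest. The difference to Tharparkar was -1.34 (95% confidence interval -3.05 to 0.38, limma adjusted p = 0.226). Without lame R2_2 it was -1.94 (limma adjusted p = 0.00844). The probe was kept only through the Tharparkar arrays, where it is highest, so this lower value is favoured by the filter and supports no call. Against normal crossbred it was -0.67 (adjusted p = 0.623) and, without lame R2_2, -1.27 (adjusted p = 0.0567).

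IL1RAP, the shared accessory subunit, was close to background, well above it on 1 of 4 lame, 2 of 2 normal crossbred and 1 of 2 Tharparkar arrays. Its probe was kept only through the normal crossbred arrays. It was at -6.11 and -5.84 on lame R1 and at -4.22 and -3.27 on lame R2, with -4.30 and -4.47 on normal crossbred and -3.97 and -4.51 on Tharparkar arrays. The R1 arrays, with signals of only 4 and 5.2 units, were lower than all others and the R2 arrays were not. The lame differences were -0.47 (95% confidence interval -2.27 to 1.32) and -0.62 (-2.42 to 1.18), and they turned to 0.64 and 0.50 with lame R2 alone. A second probe gave -1.28 (limma adjusted p = 0.191) and -1.69 (adjusted p = 0.059). On this second probe lame R2_2 was low, at -5.36, so that the 2 probes differ on that array.

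**Figure D3:**
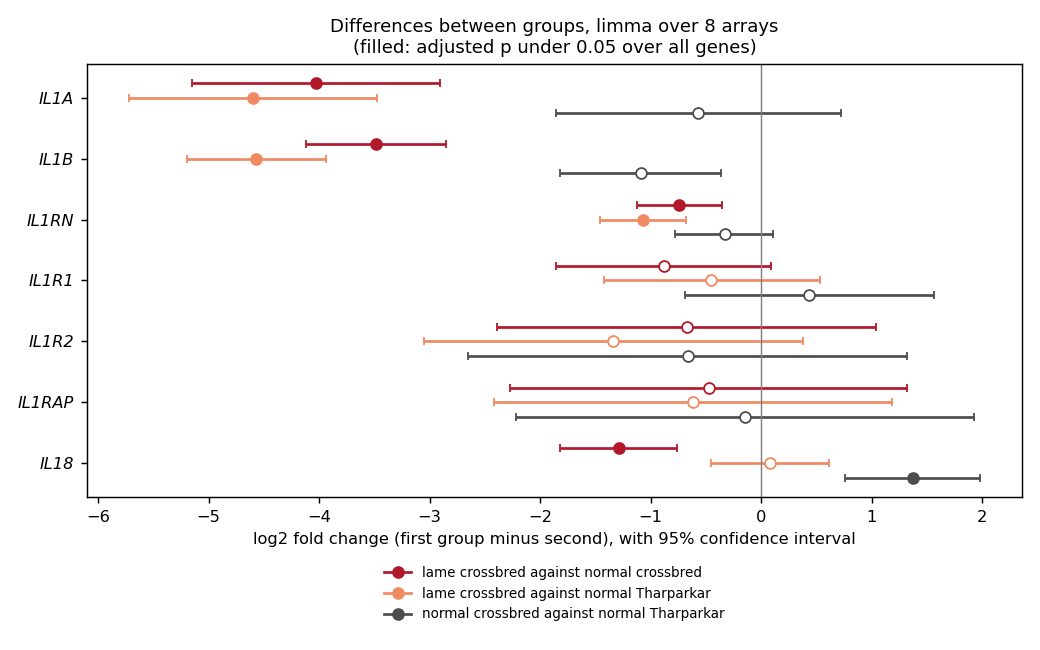
Log2 fold change of each gene in the 3 comparisons with its 95% confidence interval from limma over 8 arrays; filled points passed an adjusted p of 0.05 over all genes. The intervals of IL1A and IL1B in both lame comparisons end at or below -2.85, those of the receptors include 0, and IL18 is the single gene that passed between the normal groups.

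Lame R1 minus lame R2 was -0.75 for IL1B, -0.88 for IL1A, -0.34 for IL1RN, -0.40 for IL18 and IL1R1, -1.31 for IL1R2 and -2.23 for IL1RAP. R1 was the lower one for all 7 genes, but the share of all genes lower in R1 was not counted, so this is only a description. For IL1A, IL1R2 and IL1RAP, the array lame R2_2, with its high background, was the highest lame array. The duplicates of R1 and R2 differed by 0.11 and 0.09 for IL1B, by 0.42 and -1.56 for IL1A, and by -1.15 and -2.30 for IL1R2. Taken alone against normal crossbred, R1 gave -3.86 and R2 -3.11 for IL1B, and -4.47 and -3.59 for IL1A.

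The loss of calls with duplicates averaged is set by fold. There, 5-fold was the smallest fold called against normal crossbred and 4.29-fold against Tharparkar. IL1A and IL1B passed in both (limma adjusted p between 3.67e-09 and 0.000107) and the other 5 genes in neither, beside 1.1% and 3.51% of all genes. Between the normal groups none of the 7 passed (limma; the unadjusted p was under 0.05 for 0 of them), beside 2.46% of all genes. Against normal crossbred, IL1B was -3.46 within slide 1 and -3.51 within slide 2, and IL1A was -4.38 and -3.67. The receptors differed between slides, with IL1R1 at -1.76 and -0.00, IL1R2 at -1.33 and -0.02, and IL1RAP at -0.87 and -0.08.

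Without a test, groups of this size often do not overlap. Lame and normal crossbred arrays did not overlap for 4 of the 7 genes, where 9.61% of all genes were called and 38.8% did not overlap. The same held for 4 of 7 against Tharparkar, where 23.3% were called and 50% did not overlap, and for 5 of 7 between the normal groups, where 18.6% were called and 81.9% did not overlap.

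Markers of granulocytes, cells that PBMC preparation is meant to remove, fell together with the agonists. Of 15 granulocyte markers tested, 8 were lower and 0 higher in lame than in normal crossbred, with a median log2 difference of -1.69 (all genes -0.04). Against Tharparkar 9 were lower and 0 higher, with a median of -2.08; of all genes, 6.32% and 10.8% were lower. With the random block 1 and 4 of the 15 were lower, and with duplicates averaged 4 and 7. They included the chemokine receptors CXCR1 (-3.82 and -4.78) and CXCR2 (-3.33 and -5.55), the granule gene TCN1 (-2.31 and -2.08) and the transglutaminase TGM3 (-2.95 and -3.91). The median level of the 15 was -2.46 to -2.11 on lame arrays, -0.73 to -0.70 on normal crossbred and -0.39 to -0.22 on Tharparkar arrays. CATHL1, lower in both comparisons, was at -6.64 to -5.06 on lame arrays, where the filter on dim probes can favour a lower value.

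Not all granulocyte markers followed. S100A8, S100A9 and S100A12, which monocytes also express, gave -0.29, 0.20 and -0.11 against normal crossbred and did not pass. PGLYRP1 (0.14 and -0.34, SE 0.94) and CATHL2 (-1.18 and -0.48, SE 0.83) passed in neither lame comparison. MPO was lower against normal crossbred (-1.70) but gave 0.36 against Tharparkar. It was higher in normal crossbred than in Tharparkar by 2.06 (limma adjusted p = 0.016). CSF3R had no matched probe. The 15 tested had passed the filter, so that each was by selection well above background on all arrays of 1 or more groups. Of 9 monocyte markers, CSF1R was higher (1.00 and 0.80) and CD14, the lipopolysaccharide co-receptor, lower (-1.56 and -1.62), while 7 did not pass in either lame comparison. With duplicates averaged or the random block, 0 of the 9 passed in either direction in both comparisons. The median level of the monocyte markers was 0.60 to 1.22 on lame, 1.54 to 1.67 on normal crossbred and 1.60 to 1.61 on Tharparkar arrays, whereas the log2 of their mean signal was 2.10 to 2.86, 1.85 to 1.87 and 2.17 to 2.28, so that the order of the groups depends on the summary. The part of granulocyte or monocyte content in the IL1A, IL1B and IL1RN results was not tested.

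Of 17 tested genes of the inflammasome and of release, 1 was lower and 0 were higher in lame against normal crossbred (median 0.13), and 3 were lower against Tharparkar (median -0.17), where 6.32% and 10.8% of all genes were lower. With the random block 0 passed in either comparison. The 1 gene lower in both was ELANE (-1.38 and -2.21), the neutrophil elastase, which is also among the granulocyte markers. BRCC3 (-0.93) and PSTPIP1 (-0.57) passed against Tharparkar; whether the comparisons differ was not tested. The sensor NLRP3 (0.88, SE 0.55), the adaptor PYCARD (0.14, SE 0.13), the pore protein GSDMD (-0.01, SE 0.18) and the inflammatory caspase CASP4 (-0.58, SE 0.29) did not pass against normal crossbred. Another 11 genes of this list, such as AIM2, had no matched probe, and 3, such as P2RX7, were dim.

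Of 25 tested genes from the receptor to NF-kB, 2 were higher and 1 lower in lame against normal crossbred, and 2 higher and 5 lower against Tharparkar (medians -0.14 and -0.10), where 9.61% and 23.3% of all genes were called. With the random block 0 passed in either comparison, and with duplicates averaged 1 was higher against normal crossbred and 0 passed against Tharparkar. IRAK1, the kinase recruited to the receptor, was higher by 2.82 (SE 0.35, limma adjusted p = 0.00418) and 1.98. Its level on the normal crossbred arrays was low, at -5.25 and -5.35. MAP3K8 was higher by 0.90 against normal crossbred, and MAPK8 was higher by 0.80 against Tharparkar (limma adjusted p = 0.00542). RELA, an NF-kB subunit, was lower by -0.59 and -0.97, and CHUK, UBE2N, MAP2K6 and TAB1 were lower against Tharparkar by -0.67, -0.67, -0.66 and -0.47. The adaptor MYD88 gave -0.42 (SE 0.24) and -0.68 (SE 0.24) and did not pass.

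Genes that IL-1 and NF-kB are known to induce made up the last list. Of 32 listed, 19 were tested and 13 were dim, IL6 and TNFAIP3 among the dim ones. Against normal crossbred 6 were lower and 2 higher (median -0.78, all genes -0.04), and against Tharparkar 10 were lower and 3 higher (median -1.18, all genes -0.01), where 9.61% and 23.3% of all genes were called. With the presumed RNA sample as a random block these counts became 0 lower and 1 higher, and 2 lower and 0 higher. The neutrophil-attracting chemokines CXCL2 (-2.35 and -4.62) and CXCL3 (-2.98 and -4.98) and the pentraxin PTX3 (-4.18 and -6.35) were lower in both. So were NFKBIA (-0.78 and -0.76), an NF-kB inhibitor, and NFKBIZ (-1.09 and -1.39). The related gene NFKBIE went the other way. It gave 0.46 against normal crossbred, not past the test, and was higher against Tharparkar by 0.84 (limma adjusted p = 0.00868). On the lame arrays CXCL3 was at -5.32 to -3.79 and PTX3 at -6.53 to -2.91, levels at which the IL1R2 probe was close to background. For a probe kept only through normal arrays the filter favours a lower value in lame arrays, which can raise the counts of lower genes. CXCL8, the bovine interleukin-8, gave -3.12 (SE 0.81, limma adjusted p = 0.0567) against normal crossbred and was lower against Tharparkar by -3.84 (SE 0.81, adjusted p = 0.0154).

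Some induced genes went the other way. TNFAIP6 was higher in lame than in normal crossbred by 3.35 (SE 0.16, limma adjusted p = 0.000104), and lame and Tharparkar gave 0.09; its levels were -0.82 to -0.46 on lame, -3.89 and -4.11 on normal crossbred, and -0.74 on both Tharparkar arrays. The acute-phase gene HP, haptoglobin, was higher in both comparisons (2.08 and 1.16). TNF gave -0.36 and 0.89, the latter past the test (limma adjusted p = 0.00739). The granulocyte markers fell beside these genes too, and their part was not tested.

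**Figure D4:**
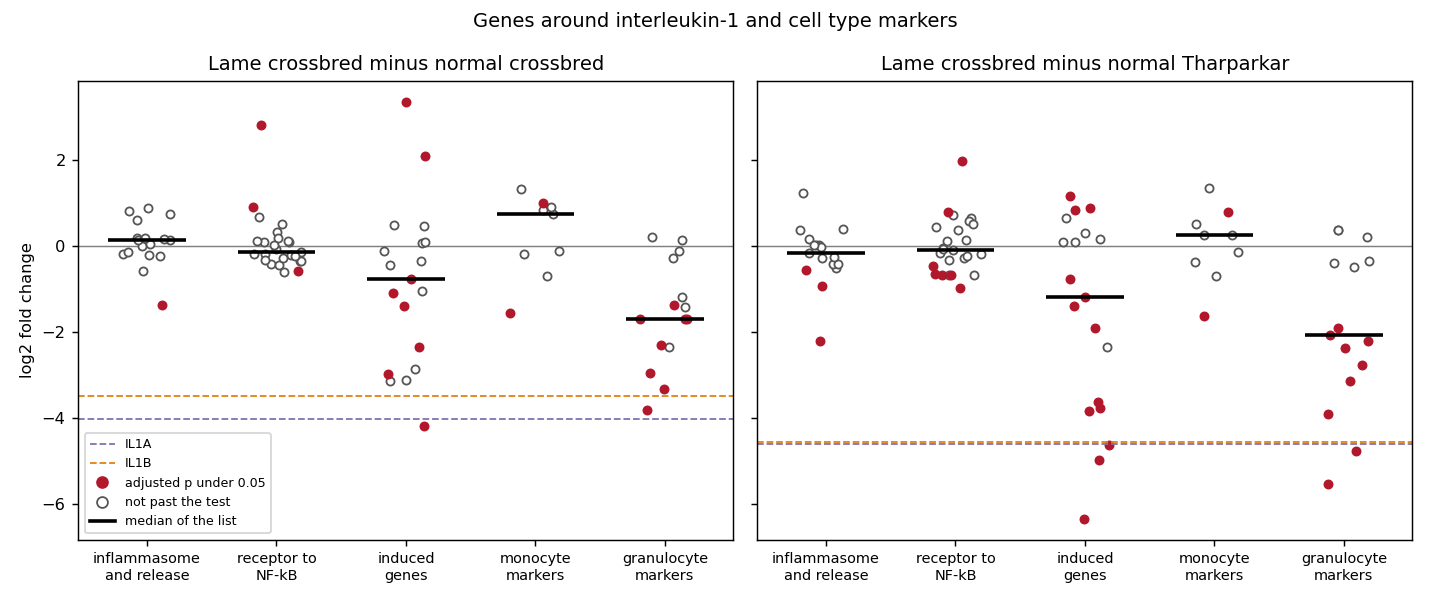
Log2 fold change of each tested gene of 3 lists around IL-1 and of 2 marker lists, in lame against each normal group; red points passed an adjusted p of 0.05 and black bars are list medians. Dashed lines mark IL1A and IL1B. The induced genes and granulocyte markers have medians of -0.78 and -1.69 (left) and -1.18 and -2.08 (right), while the inflammasome and receptor-to-NF-kB lists lie around 0.

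Other members of the IL-1 superfamily were scarcely measured. Of 15 listed, 2 were tested and neither passed in any comparison: IL1RL1, the IL-33 receptor, gave 0.46 and 0.20, and SIGIRR, an inhibitory receptor, gave -0.03 and -0.24 in the lame comparisons. IL33, IL36RN and IL1RL2 were dim, and 10 had no matched probe, the IL-18 receptor genes among them.

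IL1A, IL1B and IL1RN lie in 1 cluster of IL-1 genes on chromosome 11, so the genes beside them in RefSeq's order were read as well. Next to IL1A, CKAP2L was lower in lame by -0.72 (SE 0.14, limma adjusted p = 0.0205) and -1.11 (adjusted p = 0.0021). SLC20A1 gave -0.15 and 0.33, CHCHD5 gave -0.58 and -0.20, and beyond IL1RN, RPIA gave -0.36 and -0.25 and EIF2AK3 -0.65 and -0.20, none past the test. THNSL2, farther beyond IL1RN, gave 0.78 and, against Tharparkar, was higher by 2.83 (limma adjusted p = 0.000597). No tested neighbour was lower by as much as IL1A or IL1B. The IL-37 and IL-36 genes between IL1B and IL1RN had no matched probe or were dim.

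IL1A, IL1B and IL1RN followed one another over the 8 arrays, with Pearson correlations of 0.98 (IL1A and IL1B), 0.99 (IL1B and IL1RN) and 0.97 (IL1A and IL1RN). The other pairs with these 3 genes were between 0.34 and 0.70. These 8 arrays share 4 presumed RNA samples and fall into lame and normal, so a correlation repeats the group difference and is given as a description. Of all genes, 452 (2.99%) had a correlation of at least 0.9 with IL1B. Among the 5 most like it were RGS1, a regulator of G protein signalling, and DUSP1, a phosphatase of MAP kinases, each at 0.995. The 5 most like IL1A included ABHD2 at 0.995 and the cAMP-response gene CREM at 0.992. The most like IL1RN was TLR4, the lipopolysaccharide receptor, at 0.993, followed by IFIT3 and DUSP2. For IL1RAP the monocyte and granulocyte integrin ITGAM was among the 5, at 0.980, and for IL18 GOLM2 and ARID4B were, at 0.984 and 0.978. No gene reached 0.9 with IL1R1.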

How the data were processed

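The scanner files hold, per the file headers, 1-colour intensity values from Agilent Feature Extraction 12.0.3.1 (the submitters' processing notes name 11.5.1.1). The deposited intensity used was the processed signal, background-corrected by that software per the file headers. The authors' deposited log2 table held the same values on another centring and served as an alternative; all its columns are log2. The authors' flags for outliers and for signals well above background were read as given. Of 43653 probes, 35 were left out as outliers; 27054 were named through RefSeq (ARS-UCD2.0) and 16599 kept the file's name. The array's annotation uses another build, so no coordinates are printed. From the intensity, log2 was taken and the array's 75th percentile subtracted. A probe was kept when all arrays of 1 or more groups had it well above background (24658), and the brightest stood for its gene (15137 genes). limma 3.58.1 in R 4.3.3 fitted 3 group means over 8 arrays (5 residual degrees of freedom), with Benjamini-Hochberg adjustment and a threshold of 0.05. The scripts were tested on simulated data.

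The number of arrays limits the precision. Slides, read from the file headers, held all 3 groups. Deviations from the group means correlated between groups by slide (0.21 to 0.27), so slide pairs the arrays and is the replicate block. The main fit left this pairing out, and the fit with slide as replicate block is an alternative to it. The members and lists were chosen with earlier results of these data known. All members were named. Of each list, called genes (at most 6 a comparison, by absolute log2 fold change) and dim ones could be named. Genes named outside that rule were picked for function, position or direction. They were NLRP3, PYCARD, GSDMD, CASP4, MYD88, TAB1, NFKBIA, NFKBIZ, NFKBIE, TNF, the neighbours and the other superfamily members. Of the marker lists they were the S100 genes, PGLYRP1, CATHL2, GNLY, KLRK1 and NCR1. Among the induced genes, CXCL5 (-3.77) and CCL2 (-3.62) against Tharparkar lay within the rule, as did MMP3 (-1.39) against normal crossbred. The normexp alternative used median signals. CASP13 of the inflammasome list resolved to CASP4. A planned search of promoter motifs was not run, as no promoter sequence was used here.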

Additional observations from a re-analysis of the deposited data

How the results depend on the processing

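IL1A, IL1B and IL1RN, and also IL1R1 and IL1R2, which were not called, kept their direction in both lame comparisons under all alternatives run; IL1B passed in all 20 that give a test (largest adjusted p 0.0206 and 0.00422, limma). The genes called in lame against normal crossbred (4) became 2 with normexp, 2 with no filter on dim probes, 2 with duplicates averaged and 1 with RNA sample as a random block; leaving out 1 array gave 1 to 4, where a lone normal array is assumed to vary like the other groups. Against Tharparkar (3) there was 1 with the random block, 5 with array weights and 5 with lame R1 alone. Between the normal groups (1) there were 0 with quantile normalization, normexp, no filter, averaged duplicates or the random block, 2 with the filter on all arrays, 4 with array weights, and 0 to 2 without 1 array. With slide as replicate block there were 3, 3 and 1, and only the IL1RN call against normal crossbred was lost (limma adjusted p = 0.0631). That block gave 1000, 2899 and 2274 calls over all genes. Signs turned only where no call had been made. Between the normal groups, IL1RN became 0.63 and IL1R1 -0.06 when all kept probes of a gene were averaged; IL1R1 was -0.44 and IL1RAP 0.04 within slide 2, and without 1 array they ranged from -0.40 to 1.27 and from -0.42 to 0.12. IL1RAP became 0.64 and 0.50 with lame R2 alone. IL18 against Tharparkar became -0.45 (quantile), -0.37 (normexp), -0.07 (array weights), -0.12 (lame R1 alone), -0.12 (slide 2) and -0.17 to 0.32 without 1 array. The cause of these shifts was not tested. Over all genes, 1455 calls against normal crossbred became 633 with normexp, 356 with no filter, 167 with averaged duplicates, 23 with the random block, 7311 with array weights, and 179 to 1810 without 1 array; in that order, 3521 calls against Tharparkar became 2000, 1359, 531, 205, 8478 and 852 to 3910, and 2821 between the normal groups became 1311, 995, 373, 96, 9453 and 714 to 3981; no filter moved the median of all genes against normal crossbred to 0.31, against Tharparkar to 0.22 and between the normal groups to -0.21, and normexp that against Tharparkar to -0.16. For the lists, alternatives added after seeing the data gave 9 (without lame R2_2), 6 (averaged) and 0 (random block) induced genes lower against normal crossbred, where 6 were, and 10, 4 and 1 granulocyte markers, where 8 were; against Tharparkar they gave 11, 7 and 2 induced genes, where 10 were, and 9, 7 and 4 granulocyte markers, where 9 were. Signal near background limits IL1R2 and IL1RAP.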
